A study of Mus musculus with 6 samples.

Results

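The transcripts of 10 integrin chains were examined in induced T (iT) cells: Itgal, Itgb2, Itga4, Itgb1, Itgb7, Itgae, Itga6, Itgav, Itgb3 and Itgb8. They were chosen by name as the chains of the integrins best known from T cells, and all 10 were found among the 23420 genes of the table, which lists 26 integrin chain genes. RNA sequencing of polyadenylated RNA gave 6 libraries of 1000 sorted cells each, 3 of CD4 single-positive (CD4SP) and 3 of CD8 single-positive (CD8SP) iT cells, all from the spleen. The cells descended from iR9 embryonic stem cells of C57BL/6 background (CD45.2+), which carry a doxycycline-inducible Runx1-p2a-Hoxa9 cassette in the Rosa26 locus. Hematopoietic progenitors made from them were transplanted, without doxycycline, into irradiated adult B-NDG mice (NOD-Prkdc Scid IL2rg tm1, CD45.1+), which lack T, B and NK cells of their own. Both populations share this line, cassette and host, and differ by the CD4 or CD8 gate of the sort. No T cells from unmanipulated mice were compared here. The study describes the libraries as biological replicates, but the sources do not say which libraries came from which mouse, and p-values measure the spread between these libraries.

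Integrins are cell surface receptors made of 1 alpha and 1 beta chain, and a chain without a partner is not carried to the surface. T cells use them to stop on vessel walls, to enter tissues, to hold on to antigen-presenting cells and to stay in epithelia. Itgal and Itgb2 encode αL and β2, which form LFA-1, the receptor for ICAMs. Itga4 encodes α4, which pairs with β1 (Itgb1) to bind VCAM-1 and fibronectin or with β7 (Itgb7) to bind MAdCAM-1 of gut vessels. Itgae encodes αE (CD103), which pairs with β7 and binds E-cadherin of epithelial cells. Itga6 encodes α6, a laminin receptor chain that pairs with β1. Itgav encodes αV, which pairs with β3 (Itgb3) to bind vitronectin and with β8 (Itgb8) to release TGF-β from its latent form. Integrins are held inactive by contacts between the 2 tails inside the cell, and talin and kindlin open them by docking on the beta tail.

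The alpha chains share 1 short stretch at the inner face of the membrane, known by its residues as GFFKR, which clasps the beta chain. Its coding sequences, read from the GRCm38 (mm10) genome with GENCODE M21 gene models, are shown because all 5 alpha chains carried it although their transcript levels differed widely. Capitals mark the codons of the motif, with 5 codons on either side.
Itgal: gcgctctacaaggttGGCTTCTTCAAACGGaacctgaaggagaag
Itga4: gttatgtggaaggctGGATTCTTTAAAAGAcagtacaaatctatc
Itgae: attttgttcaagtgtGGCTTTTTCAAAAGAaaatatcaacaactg
Itga6: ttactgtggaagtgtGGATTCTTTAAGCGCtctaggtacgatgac
Itgav: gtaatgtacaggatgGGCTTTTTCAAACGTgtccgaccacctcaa

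The beta tails carry the docking sites, written NPXY or NPXF (asparagine, proline, any residue, then tyrosine or phenylalanine). The site nearer the membrane, where talin binds, is shown for the 4 beta chains in which it was found, because the abundant beta chains carry it. Capitals mark the codons of the motif.
Itgb2: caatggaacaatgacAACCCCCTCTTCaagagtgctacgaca
Itgb1: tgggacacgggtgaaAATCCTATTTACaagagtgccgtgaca
Itgb7: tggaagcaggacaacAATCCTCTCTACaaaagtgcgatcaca
Itgb3: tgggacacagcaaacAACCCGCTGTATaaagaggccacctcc
A second match nearer the end of the tail was found in Itgb1, Itgb2 and Itgb7. These letters were not found in the tail of Itgb8, nor a second time in that of Itgb3.

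The genes lie on 7 chromosomes of GRCm38, and each interval below is the whole gene, exons and introns. Itga6 (chr2:71745616-71858416), Itga4 (chr2:79255426-79333123) and Itgav (chr2:83724397-83806916) stand on the plus strand of 1 chromosome. Itgal (chr7:127296260-127335138), Itgb1 (chr8:128685654-128733200) and Itgb2 (chr10:77530252-77565708) are also on the plus strand. So are Itgae (chr11:73090583-73147446) and Itgb3 (chr11:104608000-104670476). Itgb8 (chr12:119158022-119238802) and Itgb7 (chr15:102215995-102231944) are on the minus strand. Itga4 overlaps the opposite-strand gene Cerkl at its end, with 908 nt of identical sequence between their transcripts. Cerkl was listed at 2.58 to 6.64 TPM, far under Itga4. Itgae holds the opposite-strand gene Haspin, at most 16.3 TPM. Use of strand in counting is not given in the sources used here, so reads from the stretch shared by Itga4 and Cerkl cannot be told apart. Itgb2 shares 96.5% identity over 228 nt with Gm14699, and Itga6 is identical to Gm29397 over 326 nt. Reads from these stretches could be split between copies.

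Levels are given as TPM, which is the share of a library's transcripts that come from a gene, corrected for transcript length. Cd4 was 279 to 331 TPM in the CD4SP libraries and at most 0.104 TPM in the CD8SP libraries, and Cd8a was 1038 to 1161 TPM in CD8SP and at most 2.93 TPM in CD4SP; these are the genes of the gates. Between 9971 and 10649 genes reached 1 TPM in a library. The 84 ribosomal protein genes took 24.1% to 28.7% of the CD4SP libraries and 32.1% to 35.9% of the CD8SP libraries. CD8SP replicates 1 and 2 lay closest together, with a median absolute log2 difference of 0.0750 between them against 0.170 to 0.313 for the other pairs within a population. The Treg factor Foxp3 was 142 and 167 TPM in CD4SP replicates 1 and 3 but 6.56 TPM in CD4SP replicate 2, and at least 7.48 TPM in each CD8SP library. In bulk libraries, fewer cells of a type and less RNA per cell cannot be told apart.

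Integrin transcripts were abundant in both populations and were dominated by a few chains. The 10 chains summed to 2235, 1725 and 2102 TPM in CD4SP and to 1416, 1460 and 1247 TPM in CD8SP, so that every CD4SP library was above every CD8SP library. The means were 2020 ± 265 and 1374 ± 112 TPM (SD, n = 3 each; exact permutation p = 0.1, two-sided, the smallest p that 3 against 3 libraries allow). They made up 99.3% of all integrin chain TPM in CD4SP and 98.2% in CD8SP. Itgal, Itgb2, Itga4, Itgb1, Itgb7 and Itgae exceeded 10 TPM in all 6 libraries, and the other 4 chains were scarce in at least 1 population.

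**Figure D1:**
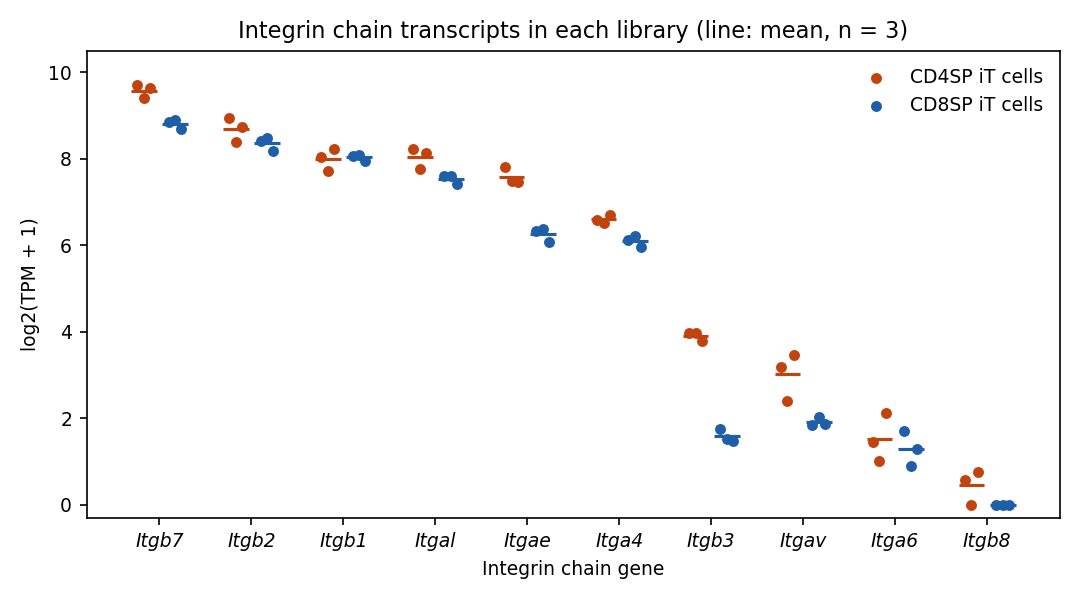
Level of each integrin chain, as log2(TPM + 1), in the 3 CD4SP and 3 CD8SP libraries, with 1 point per library and a line at the mean; genes are ordered by their mean over all libraries. Itgb7 was the highest chain in every library (411 to 835 TPM), and Itgb3 showed the widest gap between the populations.

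The order of the chains was nearly the same in both populations. In CD4SP it ran Itgb7, Itgb2, Itgal, Itgb1, Itgae, Itga4, Itgb3, Itgav, Itga6 and Itgb8. Neighbours did not overlap over the 3 libraries, except Itgal with Itgb1 and Itgb1 with Itgae. In CD8SP Itgb1 stood above Itgal and Itgav above Itgb3, and the values of Itgae and Itga4, and of Itgb3 and Itga6, overlapped. The beta to alpha ratio of the summed chains was 2.59 ± 0.08 in CD4SP and 3.12 ± 0.03 in CD8SP (SD, n = 3 each), with no overlap (exact permutation p = 0.1).

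The comparison of CD4SP with CD8SP asked which chains differ between the populations of the CD4 and the CD8 gate raised in B-NDG hosts. Of the 9 chains tested, Itgae, Itgav and Itgb3 were called, all higher in CD4SP, and none was called higher in CD8SP. A gene was tested when at least 3 libraries held 1 TPM or more, and called when limma on log2(TPM + 1) gave a Benjamini-Hochberg adjusted p under 0.05 and a difference over 2-fold. Among all 10476 genes tested, 9.73% were called. The share with CD4SP higher was 7.92% and that with CD8SP higher 1.8%. By adjusted p alone, 6 of the 9 chains passed, all higher in CD4SP, beside 20.8% of all tested genes in either direction and 17.6% with CD4SP higher. The count fell to 3 (Itgb7, Itgae and Itgb3) without any 1 library other than CD4SP replicate 2, and was 7 without that one. The 6 did not overlap between populations, each higher in CD4SP. Over all tested genes, 36.6% did not overlap with CD4SP higher and 6.61% with CD8SP higher. The whole TPM scale leaned the same way, with a median log2 difference of 0.28 over all tested genes against 0.51 over the 9 chains. Rescaling by the median of ratios brought the all-gene median to 0.00 and changed the called genes from 830 higher and 189 lower in CD4SP to 489 and 300. Differences and calls below are against 0 unless stated otherwise.

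**Figure D2:**
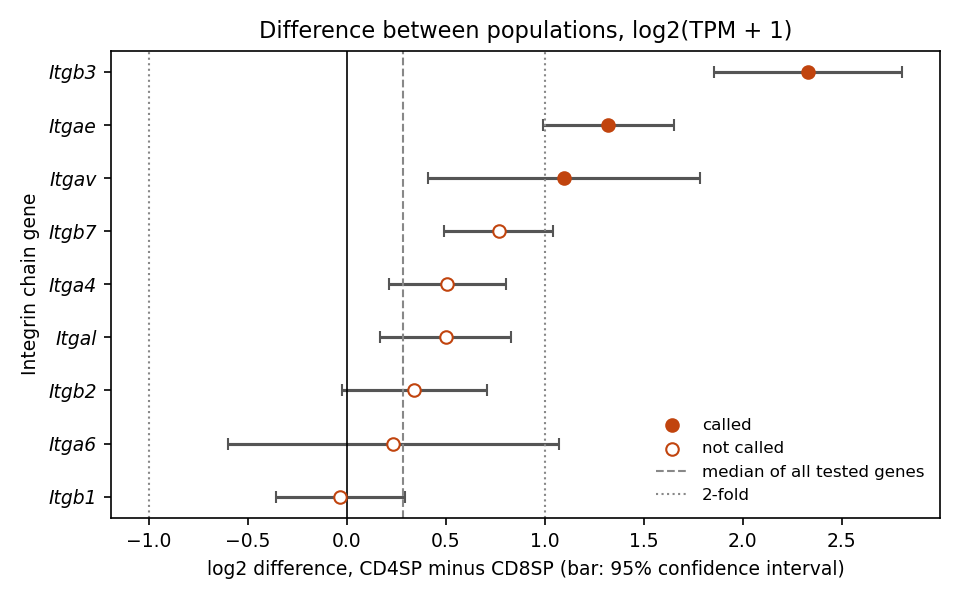
Difference between CD4SP and CD8SP on the log2(TPM + 1) scale for the 9 tested chains, with limma's 95% confidence interval; filled points were called, the dashed line is the median of all tested genes (0.28) and dotted lines mark 2-fold. Itgb3 (2.33) and Itgae (1.32) lay farthest to the CD4SP side, and the interval of Itgb1 spanned 0.

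The chains of LFA-1 were both abundant, and neither was called. Itgal was at 298, 217 and 280 TPM in CD4SP and at 194, 195 and 169 TPM in CD8SP. Each CD4SP library was above each CD8SP library, with a log2 difference of 0.50 (SE 0.144, adjusted p = 0.0422 by limma), under 2-fold and therefore not called. Itgb2 was at 495, 336 and 427 TPM in CD4SP and at 338, 358 and 288 TPM in CD8SP. CD4SP replicate 2 lay within the CD8SP range, and the log2 difference of 0.34 did not pass (95% confidence interval -0.02 to 0.71, adjusted p = 0.159). Without that library it was 0.49 (adjusted p = 0.0280), also under 2-fold. After rescaling by the median of ratios, Itgal and Itgb2 differed by 0.19 and 0.03, with adjusted p = 0.216 and 0.871. Within each library, β2 exceeded αL by 1.58 ± 0.07 times in CD4SP and by 1.76 ± 0.07 times in CD8SP (SD, n = 3 each).

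The α4 chain was somewhat higher in CD4SP, and the values of β1, one of its partners, overlapped. Itga4 was at 94.9, 90.5 and 103 TPM in CD4SP and at 68.3, 73.3 and 60.9 TPM in CD8SP. The groups did not overlap, and the log2 difference was 0.51 (SE 0.129, adjusted p = 0.0274 by limma), under 2-fold. Without CD4SP replicate 1 the adjusted p of Itga4 was 0.0625. Median-of-ratios rescaling left 0.20 (adjusted p = 0.216). Itgb1 was at 265, 211 and 297 TPM in CD4SP and at 266, 272 and 246 TPM in CD8SP. The CD8SP values lay inside the CD4SP range, and the log2 difference was -0.03 (95% confidence interval -0.36 to 0.29, adjusted p = 0.880). It lay 0.32 below the all-gene median, and 77.1% of tested genes had a difference as high or higher. With median-of-ratios rescaling it was -0.34 (adjusted p = 0.0514), not past the threshold.

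The β7 chain was the most abundant integrin transcript of both populations and was higher in CD4SP. Itgb7 was at 835, 673 and 790 TPM in CD4SP and at 462, 474 and 411 TPM in CD8SP. The groups stood well apart, with a log2 difference of 0.77 (SE 0.120, adjusted p = 0.00371 by limma), under 2-fold and not called. It kept an adjusted p under 0.05 with median-of-ratios rescaling (0.46, adjusted p = 0.0117). Itgae, its epithelial partner, was at 222, 178 and 176 TPM in CD4SP and at 79.9, 82.2 and 66.4 TPM in CD8SP. The lowest CD4SP library held more than the highest CD8SP library by a wide margin, and Itgae was called with a log2 difference of 1.32 (SE 0.145, adjusted p = 0.000696). It was called under each of the 17 alternative settings, with differences of 1.02 to 1.38.

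The αV and β3 chains were scarce next to the leukocyte integrins, and both were higher in CD4SP. Itgb3 was at 14.6, 14.7 and 12.9 TPM in CD4SP and at 2.36, 1.88 and 1.78 TPM in CD8SP. This was the largest difference among the 9 tested chains, 2.33 on the log2 scale (SE 0.207, adjusted p = 0.000244 by limma). Since 1 TPM was added before the logarithm, a fold at such levels is understated, and with 0.1 TPM added the difference was 2.76. Itgb3 was called under each of the 17 alternative settings. Itgav was at 8.10, 4.30 and 10.1 TPM in CD4SP and at 2.61, 3.11 and 2.68 TPM in CD8SP. The groups did not overlap, but CD4SP replicate 2 was near the CD8SP values. The log2 difference was 1.10 (SE 0.301, adjusted p = 0.0355 by limma), or 0.81 less the all-gene median, a call lost in 11 of 16 alternative settings. It was lost without CD4SP replicate 1 (adjusted p = 0.0972) or 3 (0.106), and without CD8SP replicate 1 (0.109), 2 (0.0863) or 3 (0.0955). Without CD4SP replicate 2 it was 1.40 (adjusted p = 0.00564).

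The last 2 chains were near the lower limit of the table. Itga6 was at 1.73, 1.03 and 3.37 TPM in CD4SP and at 2.26, 0.853 and 1.46 TPM in CD8SP. The groups overlapped, and the log2 difference of 0.23 did not pass (95% confidence interval -0.60 to 1.07, adjusted p = 0.671 by limma). Itgb8 was at 0.498 and 0.706 TPM in CD4SP replicates 1 and 3 and was listed at 0 in CD4SP replicate 2 and in all 3 CD8SP libraries. It fell under the filter, and with no filter its adjusted p was 0.190. Without counts the depth is unknown, so a listed 0 sets no upper limit.

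CD4SP replicate 2 was the lowest CD4SP library for 7 of the 9 tested chains. The same held for 57.9% of all tested genes. In that library, where Foxp3 was low, Itgal, Itgb2, Itga4, Itgb1, Itgb7, Itga6, Itgav (4.30 TPM) and Itgb8 (0) were below the other CD4SP libraries. Itgae (178 TPM) and Itgb3 (14.7 TPM) were not, although Itgae was highest in CD4SP replicate 1 (222 TPM). Other genes did not drop there as Foxp3 did. Over CD4SP replicates 1 to 3, Lrrc32 was at 42.6, 62.5 and 56.0 TPM and Tnfrsf18 at 835, 712 and 769 TPM (both described below). The part of Foxp3-expressing cells in the differences was not tested. Without CD4SP replicate 2, 3 chains were called, as with all libraries.

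Ratios between abundant chains within a library depend little on the scale of that library, whereas those of scarce chains depend on the 1 TPM added. They were compared for 8 pairs on log2(TPM + 1), and 7 of them did not overlap between populations (exact permutation p = 0.1, the smallest possible, adjusted p = 0.114 over the 8 pairs). Where both chains were tested, 6 of 7 pairs did not overlap, beside 37.7% of all pairs of tested genes. No pair could pass 0.05 with 3 libraries a group. Among them was the pair of beta partners of α4. Itgb7 exceeded Itgb1 by 3.16, 3.20 and 2.66 times in the CD4SP libraries and by 1.73, 1.75 and 1.67 times in the CD8SP libraries. The alpha partners of β7 shifted as well. Itgae exceeded Itga4 by 2.34, 1.96 and 1.71 times in CD4SP and by 1.17, 1.12 and 1.09 times in CD8SP. Relative to β7, αE was higher in CD4SP by 0.55 on the log2 scale, whereas α4 was lower by a difference of -0.26. The 2 alpha partners together were covered 2.66 ± 0.16 times by β7 in CD4SP and 3.13 ± 0.09 times in CD8SP (SD, n = 3 each). Itgb3 was 1.80, 3.42 and 1.28 times Itgav in CD4SP and 0.902, 0.604 and 0.663 times in CD8SP, so the more abundant of that pair changed with the population. Itga6 to Itgb1 was the pair that overlapped (exact permutation p = 0.5). The ratio of Itgav to Itgb8 rests on zeros of Itgb8, and its direction turned with the amount added before the logarithm (0.65 with 1 TPM, -0.56 with 0.1 TPM).

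**Figure D3:**
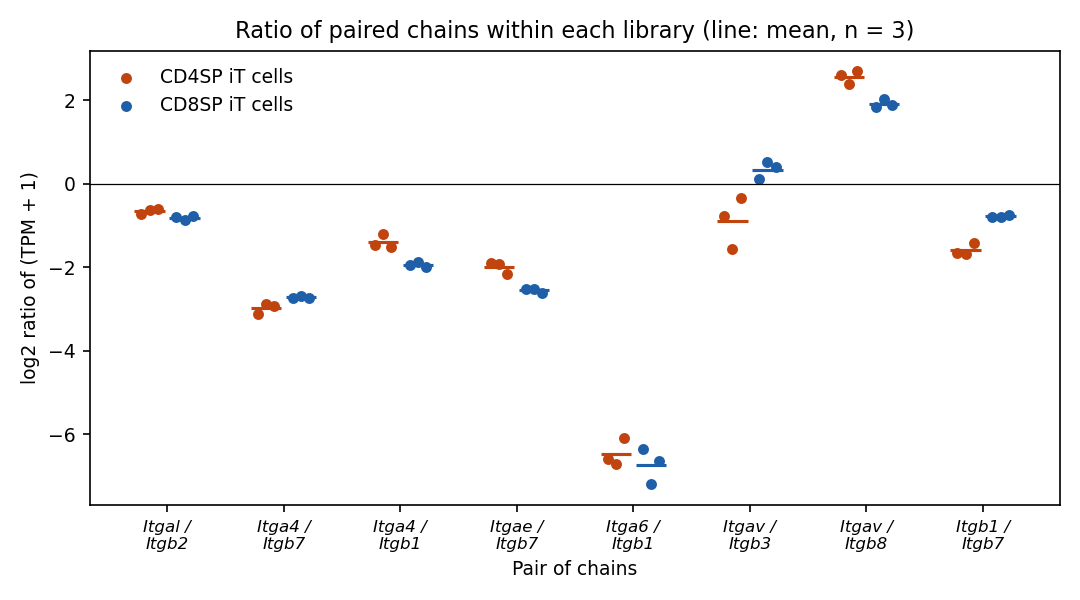
Log2 ratio of (TPM + 1) for 8 pairs of chains in each library, with 1 point per library and a line at the mean of 3. Itgb1 to Itgb7 was -1.58 in CD4SP and -0.78 in CD8SP, Itgav to Itgb3 lay below 0 in CD4SP and above 0 in CD8SP, and Itga6 to Itgb1 was the pair whose groups overlapped.

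Of the 16 integrin chains outside the 10, most were at or near 0. Of the 4 tested, 3 were called, beside 9.73% of all tested genes, but Itgax and Itga1 passed the filter only through CD8SP. Itga7, a laminin-binding alpha partner of β1, was at 12.5, 10.2 and 9.08 TPM in CD4SP and at 1.39, 1.18 and 1.82 TPM in CD8SP (log2 difference 2.23, adjusted p = 0.000559 by limma). Itgax, the CD11c alpha partner of β2, was at 0.946, 0.0821 and 0 TPM in CD4SP and at 17.2 to 18.1 TPM in the 3 CD8SP libraries (-3.87, adjusted p = 0.000109). Itga1, a collagen-binding alpha partner of β1, was at 0.577, 0.309 and 0.758 TPM in CD4SP and at 2.73, 2.21 and 2.67 TPM in CD8SP (-1.20, adjusted p = 0.0167). The groups did not overlap for Itga7, beside 36.6% of all tested genes with CD4SP higher. Itgax and Itga1 were under 1 TPM in every CD4SP library, so the filter let them in only without overlap. Their p-values are therefore no more than a description. Itgb5, the other chain tested, was at 0.384 to 2.85 TPM and overlapped between populations (0.19, adjusted p = 0.768).

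Of the tested genes that open, restrain and relay integrins, 4 of 40 were called, a share close to the 9.73% of all tested genes. All 4 were higher in CD4SP, 3 of them by little more than 2-fold. Of the 17 genes of inside-out activation, 14 were tested and 1 was called. It was Rasgrp1, an exchange factor for small GTPases, with a log2 difference of 1.03 (adjusted p = 0.00378 by limma). Rasgrp2 and Rapgef1, exchange factors of the same list, overlapped between populations (-0.11 and 0.27, adjusted p = 0.589 and 0.325). Talin-1 (Tln1, 42.5 to 52.6 TPM) and kindlin-3 (Fermt3, 125 to 205 TPM), which dock on the beta tails shown above, overlapped between populations (-0.05 and 0.30, adjusted p = 0.825 and 0.178). Cyth1, cytohesin-1, differed by 2.24 without being called (adjusted p = 0.167), and CD8SP replicate 1 stood at 1.06 TPM beside 53.9 and 45.4 TPM in the other CD8SP libraries. Of the 10 inhibitors, 9 were tested and 1 was called, Cytip (1.01, adjusted p = 0.00131), which binds cytohesin-1. Of the 21 adaptors of outside-in signalling, 17 were tested and 2 were called. They were the kinase Src (2.08, adjusted p = 0.00193), at most 4.96 TPM, and Vcl, vinculin (1.04, adjusted p = 0.0320). Src was at 0.271, 0.425 and 0 TPM in CD8SP and passed the filter only through CD4SP. Its p-value and its place in the count are therefore no more than a description. Less the all-gene median, Rasgrp1, Cytip and Vcl differed by 0.75, 0.72 and 0.76, under 2-fold, and Src by 1.80. Zyx, the adaptor zyxin, was at 255, 199 and 184 TPM in CD4SP and at 442, 456 and 322 TPM in CD8SP. It was just under 2-fold (-0.93, adjusted p = 0.00827) and was called higher in CD8SP after median-of-ratios rescaling (-1.24, adjusted p = 0.00200). The list medians were 0.41 for activators, 0.16 for inhibitors and 0.12 for adaptors, beside 0.28 for all tested genes.

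Of the 24 ligands and ligand-related genes, 7 were tested and 4 were called. Lrrc32 encodes GARP, which is not itself a ligand but tethers latent TGF-β, the substrate of αVβ8, to the cell surface. It was at 42.6, 62.5 and 56.0 TPM in CD4SP and at 0.912, 1.16 and 0.983 TPM in CD8SP (4.75, adjusted p = 6.38e-06 by limma). Lrrc32 passed the filter only through CD4SP, where it was high, so that p-value is no more than a description. Tgfb3, a latent TGF-β whose propeptide αV integrins bind, was also higher in CD4SP (1.60, adjusted p = 0.00763), as was Lamc1, the laminin γ1 chain (1.51, adjusted p = 0.0119). Both were under 1 TPM in every CD8SP library and passed the filter only through CD4SP, so these p-values too are no more than a description. Tgfb1, another gene of the list, was at 0.455, 0.790 and 1.20 TPM in CD4SP and listed at 0 in CD8SP, and it was not tested. Cdh1, E-cadherin and so the ligand of αEβ7, was at 6.65, 4.87 and 7.97 TPM in CD4SP and at 17.2, 15.5 and 17.7 TPM in CD8SP. It was higher in CD8SP (-1.27, adjusted p = 0.00520), the opposite direction to Itgae. Icam1 and Icam2, ligands of LFA-1, were at 56.4 to 87.8 and 117 to 151 TPM and overlapped between populations. Over the 5 lists around the 10 chains, 11 of 51 tested genes were called. Over all tested genes 9.73% were called. CD4SP was the higher population for 8 of them and CD8SP for 3. Under median-of-ratios rescaling, quantile normalization or removal of ribosomal protein genes the split was 5 and 4, since Rasgrp1, Cytip and Vcl were no longer called and Zyx was. Itgax, Itga1, Src, Tgfb3 and Lamc1 stayed under 1 TPM in every library of the lower population, and Lrrc32 in all but CD8SP replicate 2. These genes passed the filter only through the population where they were high, so the count called is no more than a description. With a filter of 5 TPM the count was 6, since genes as low as Src, Tgfb3 and Itga1 were no longer tested.

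**Figure D4:**
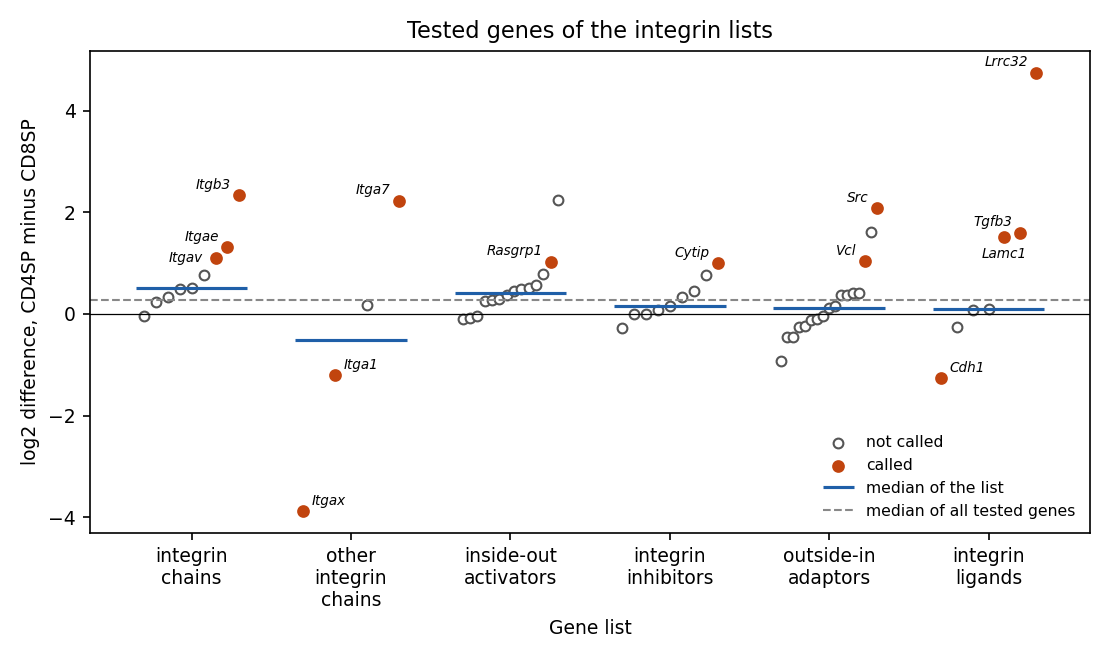
Log2 difference between CD4SP and CD8SP for each tested gene of the 6 lists, 1 point per gene, filled and named where called; the blue line is the list median and the dashed line the median of all tested genes (0.28). The 9 chains had the highest list median (0.51), Lrrc32 lay at 4.75 and Itgax at -3.87.

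Itgb3, Itgav and Itgax are also found on platelets, endothelium and dendritic cells, and markers of those cells were read in the same libraries. Of 7 platelet markers, Pf4, Ppbp, Gp9 and Treml1 were listed at 0 in all 6 libraries. The sum of the 7 was 0.186 to 2.64 TPM in CD4SP and 0.395 to 1.13 TPM in CD8SP. Itga2b, the platelet partner of β3, was listed at 0 in CD4SP and was at 0.285, 0.192 and 0.231 TPM in CD8SP. Gp1ba was at 0, 0.937 and 1.82 TPM in CD4SP and at 0, 0.779 and 0 TPM in CD8SP. Gp1bb was at 0.186, 1.70 and 0.294 TPM in CD4SP and at 0.110, 0.159 and 0.258 TPM in CD8SP. Of 6 endothelial and stromal markers, Kdr and Col1a1 were listed at 0 throughout, and the sum was 2.59 to 6.87 TPM in CD4SP and 1.52 to 3.21 TPM in CD8SP. Most of it was Pecam1, with means of 4.71 TPM in CD4SP and 2.09 TPM in CD8SP. Its values overlapped and it was not called (0.86, adjusted p = 0.124 by limma). Cdh5 was at 0, 0.168 and 0.462 TPM in CD4SP and was listed at 0 in the CD8SP libraries. Col1a2 was at most 0.409 TPM and Pdgfrb at most 0.186 TPM, each highest in a CD4SP library. Among dendritic cell markers other than Itgax, Zbtb46 was listed at 0 in all 3 CD8SP libraries, where Itgax was high. Xcr1 overlapped between populations, and Siglech was at most 0.476 TPM. Flt3 was listed at 0 in the CD4SP libraries and was at 0.263 and 0.317 TPM in CD8SP replicates 1 and 2 and at 0 in CD8SP replicate 3. Of 8 myeloid markers, 1 was tested. The sum of the list was 17.1 to 31.3 TPM in CD4SP and 3.64 to 9.09 TPM in CD8SP, through Lyz2, which was called higher in CD4SP (1.68, adjusted p = 0.00872 by limma). S100a8, S100a9 and Mpo were listed at 0 throughout, Csf1r was at most 0.683 TPM, and Cd14 was listed at 0 in every CD4SP library and was at 0.425 and 0.221 TPM in CD8SP replicates 1 and 2. NK cell markers moved with the CD8SP group. Of 4, Klre1 and Klrb1c were called higher in CD8SP (-2.66 and -1.86, adjusted p = 0.000534 and 0.00426 by limma), and Ncr1 and Klra8 were listed at 0 throughout. Klrb1c was at 1.37, 0.682 and 1.82 TPM in CD4SP, so it passed the filter only through CD8SP, where it was high. The part of these cells in the integrin differences was not tested. None of 7 T cell markers was called, beside 9.73% of all tested genes, but Cd3g (0.45), Cd247 (0.72) and Cd2 (0.58) passed by adjusted p (0.0169, 0.00429 and 0.00609) and did not overlap, with CD4SP higher.

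The genes most like Itgb3, the called chain with the largest difference, were found by the distance between profiles. Each profile was the log2(TPM + 1) over the 6 libraries less its own mean. The nearest of the tested genes was Nr4a1, a transcription factor induced by antigen receptor signals, at a root mean square distance of 0.0789. It was at 36.6, 40.4 and 30.1 TPM in CD4SP and at 7.48, 6.09 and 6.26 TPM in CD8SP. AI414108 (0.122) and Tnfrsf18 (0.124), which encodes the receptor GITR, came next. With 6 libraries in 2 groups, such a likeness mainly restates the shared group difference.

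Promoter sequence of RefSeq (GRCm38.p6) was matched for 5 of the 10 chains, Itga4, Itgb1, Itgb7, Itgav and Itgb8, over the 250 bases before the start used there. That start can differ from the gene intervals above. The window of Itgb8 (chr12:119238277-119238526) lies inside its interval, and that of Itgb7 overlaps the edge of its own. Both strands were searched for a RUNX core (TGTGGT), since the cassette holds Runx1, for an ETS core (CCGGAA) and for a SMAD element (CAGACA). The RUNX letters were found only in Itga4, and 14.1% of 32851 promoters hold them. The SMAD letters were found in Itga4, Itgb1 and Itgb8 (17.1% of promoters), and the ETS letters in none of the 5. The upstream bases of Itga4, the chain with 2 matches, and of Itgb7, its partner with none, are shown on the strand of each gene, with matches in capitals.
Itga4, chr2:79255176-79255425: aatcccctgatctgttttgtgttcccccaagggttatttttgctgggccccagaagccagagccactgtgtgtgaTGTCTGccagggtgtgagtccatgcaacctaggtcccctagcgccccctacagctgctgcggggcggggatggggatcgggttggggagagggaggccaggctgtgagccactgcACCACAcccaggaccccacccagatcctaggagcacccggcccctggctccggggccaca
Itgb7, chr15:102231936-102232185: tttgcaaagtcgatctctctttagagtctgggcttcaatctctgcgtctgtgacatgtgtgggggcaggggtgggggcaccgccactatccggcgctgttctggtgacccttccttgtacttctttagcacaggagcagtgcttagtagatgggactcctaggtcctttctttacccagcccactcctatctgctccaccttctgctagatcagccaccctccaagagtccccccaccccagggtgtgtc
A match is a run of letters, not a shown binding site, and binding was not measured.

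Because ribosomal protein genes took more of the CD8SP libraries and the all-gene median was above 0, the chains were also compared under 3 other scalings. Itgae stayed called at 1.17 without ribosomal protein genes, at 1.02 with median-of-ratios rescaling and at 1.10 with quantile normalization. Itgb3 stayed called at 2.32, 2.08 and 1.98 under the same 3. Itgb7 kept an adjusted p under 0.05 in each, whereas Itgal and Itga4 did not. Itgb1 was below 0 in each (-0.19, -0.34 and -0.20), with no adjusted p under 0.05.

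**Figure D5:**
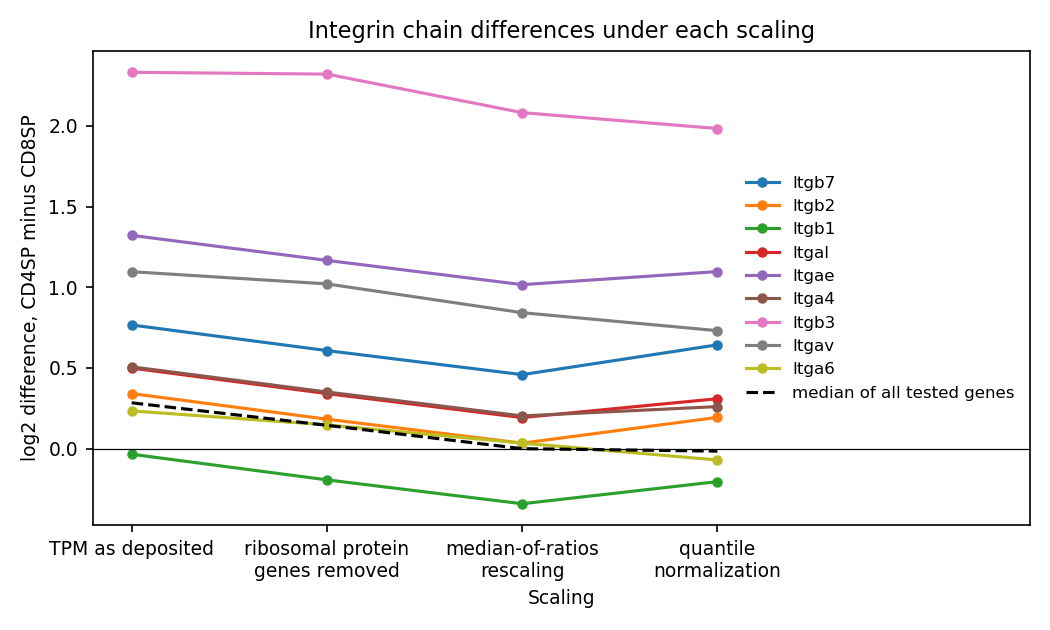
Log2 difference between CD4SP and CD8SP for the 9 tested chains under 4 scalings (lines join values of 1 gene), with the median of all tested genes dashed. Itgb3, Itgae, Itgav and Itgb7 lay above that median under every scaling shown, Itgb1 below it, and Itga6 fell under 0 with quantile normalization (-0.07).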

How the data were processed

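The authors amplified RNA of sorted cells (Discover-sc WTA Kit V2), made libraries (TruePrep DNA Library Prep Kit V2), aligned reads to mm10 with HISAT2 and quantified genes with StringTie, and they deposited 1 table of TPM values (names from the submitters' processing notes). Depth is unknown, so no counting interval is given, and the number of libraries limits the precision. Groups came from sample titles. TPM was tested as log2(TPM + 1) with limma 3.58.1 (R 4.3.3; mean-variance trend) on the 10476 genes at 1 TPM or more in at least 3 of 6 libraries, and p-values were adjusted over these by Benjamini-Hochberg. Ratios were compared by exact permutation tests, two-sided. Near copies were transcripts with at least 95% identity over 200 nt (blastn 2.17.0). Named genes were the 10 chains, each called gene of the 5 surrounding lists, and the 3 genes nearest to the called chain with the largest difference in each direction; other genes were named after their values were seen. Alternatives were other pseudocounts, filters, scalings and variance models, a replicate block, and leaving out each library. The chains and lists were chosen with earlier results of these data known. Protein sequences were not used here.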

Additional observations from a re-analysis of the deposited data

How the results depend on the processing

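Of 151 recomputed chain differences, 133 kept their direction and stayed called or not called, and 77 of 80 recomputed ratios moved by less than the spread between replicates. Itgav was called in 5 of 16 alternatives. Its difference was 1.10 (adjusted p = 0.0603) with no filter, 0.84 (0.0649) with median-of-ratios rescaling, 0.73 (0.0963) with quantile normalization, 1.02 (0.0563) without ribosomal protein genes and 1.11 (0.0931) with CD8SP replicates 1 and 2 averaged; over libraries left out it ranged from 0.87 to 1.40 (adjusted p = 0.00564 to 0.109, all by limma). The sign of Itga6 turned with quantile normalization (-0.070), and over libraries left out it ranged from -0.064 (without CD4SP replicate 3) to 0.49. That of Itgb1 turned with array weights (0.022), and over libraries left out it ranged from -0.14 to 0.10 (without CD4SP replicate 2). Neither passed the test in any setting. By adjusted p alone, 2183 genes and 6 chains passed, against 1019 and 3. Chains past the adjusted p alone numbered 3 to 7 over the 17 alternatives, and 3 with the replicate block. With a filter of 5 TPM, 6 genes of the surrounding lists were called, against 11, and Itgav and Itga6 were not tested. With quantile normalization the log2 ratio of Itga4 to Itgb7 differed by -0.38 and that of Itgav to Itgb8 by 0.41, and with a pseudocount of 0.1 TPM the latter turned to -0.56. Leaving out 1 library gave 817 to 1202 called genes, 2 to 3 chains and 8 to 11 genes of the surrounding lists. Replicate numbers gave no sign of pairing (correlation of deviations -0.02 to 0.09 over the 3 numbers, 1 each), and the replicate block gave 997 genes, 2 chains and 10 genes of the surrounding lists, with Itgav at adjusted p = 0.0537. The causes of these changes were not tested.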
